A study of Macaca mulatta with 6 samples.

Results

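The cadherin, protocadherin and catenin genes of the rhesus macaque were examined in RNA from blood plasma. Members were chosen by symbol, as genes whose name starts with CDH and a digit, PCDH, DCHS, CELSR or CTNN, or is FAT1, FAT2, FAT3 or FAT4. This gave 65 genes of the 35432 in the summed count table, of which 24186 had a symbol. Of the 65 members, 57 encode cadherin superfamily proteins and 8 carry a catenin name. Symbols chose the members, but the group was proposed with earlier counts of CDH7 and CTNNB1 in view, so the values below are a description and no test was made on them.

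The study profiled plasma RNA of 2 macaques, animal A and animal B, under a title on the legacy of early life stress, and its labels give no age, sex, treatment or stress history for either. A gradient split the plasma of each animal into lipoprotein, protein and extracellular vesicle (EV) fractions, EVs being membrane-bound particles that cells release, and each fraction of each animal gave 1 library, 6 in all. Every library carries the tissue label Plasma EV and the treatment ProteinaseK, RNAse and DNAse, so no library stands as an untreated control. Gene counts were analysed for the EV library of each animal and for 1 column of counts per animal that the authors had summed over libraries they did not name.

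Cadherins are membrane proteins that hold neighbouring cells together through calcium-dependent contacts of their outer domains. Inside the cell, the tails of classical cadherins bind beta-catenin (CTNNB1) and p120-catenin (CTNND1), and alpha-catenins tie that complex to actin. Beta-catenin also acts in the nucleus as the transcription partner of Wnt signalling. Protocadherins serve mainly in recognition between neurons, and the very large FAT, DCHS and CELSR proteins act in planar polarity and tissue growth. Vascular endothelium depends on CDH5 (VE-cadherin), and epithelia, including that of the liver, on CDH1 (E-cadherin).

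Gene counts were few. The EV library of animal A held 10397 counts and that of animal B 2842, from 2615337 and 913091 input reads. Of these reads, 24.3% mapped uniquely in EV A (634481 reads) and 23.4% in EV B (213481). Most uniquely mapped reads thus did not appear as gene counts, and the reason was not tested. The authors' sums held 62794 and 54534 counts. A gene with 0 counts could still make up 0.0289% of the counts of EV A, 0.106% of EV B, 0.00478% of sum A and 0.0055% of sum B, taking 3 counts as the limit. These limits and the 95% intervals of shares and ratios below cover counting error only, and copies made by PCR would widen them. Of 9 gene identifiers for 8 vesicle markers, 2 had a count in sum A (22.2%) and 1 in sum B (11.1%). Beside this stood 13.3% and 10.5% of all named genes, so with so few markers these values are near the background. CD9 was the only one of these markers with an EV count. Among the tetraspanin genes, CD9 had 2 counts in each EV library, CD81 had 1 count, in sum A, and CD63 had 0 in every column.

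CDH7 carried almost all counts of the family in 3 of the 4 columns. CDH7 encodes a type II classical cadherin known from the neural crest and developing nervous system. It had 5798 counts in sum A, 5145 in sum B, 659 in EV A and 1 in EV B. No other gene with a symbol had as many counts in either sum, and only FLT3LG had more in EV A. DRD3 came next in the sums, with 5139 counts in A and 5131 in B, so in sum B it was close behind. Genes without a symbol reached 19608 counts in sum A and 19111 in sum B. In EV B, by contrast, CDH7 tied at rank 95 among named genes. CDH7 made up 96.9% of the family's counts in sum A (Clopper-Pearson 95% interval 96.4% to 97.3%), 96.1% in sum B (95.6% to 96.6%), 96.9% in EV A (95.3% to 98.1%) and 1.39% in EV B (0.0352% to 7.50%).

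CTNNB1 was the member with the second most counts in both sums. It had 139 counts in sum A, 157 in sum B, 17 in EV A and 66 in EV B. Among named genes it took rank 26 in sum A, rank 15 in sum B, rank 30 in EV A and rank 2 in EV B, where only TMPRSS6 had more. CTNNB1 accordingly held 91.7% of the family's counts in EV B (82.7% to 96.9%) but 2.5% in EV A (1.46% to 3.97%). The 2 EV libraries therefore had different leading members. Counts were not divided by gene length, so these orders are orders of counts and not of transcript levels.

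**Figure D1:**
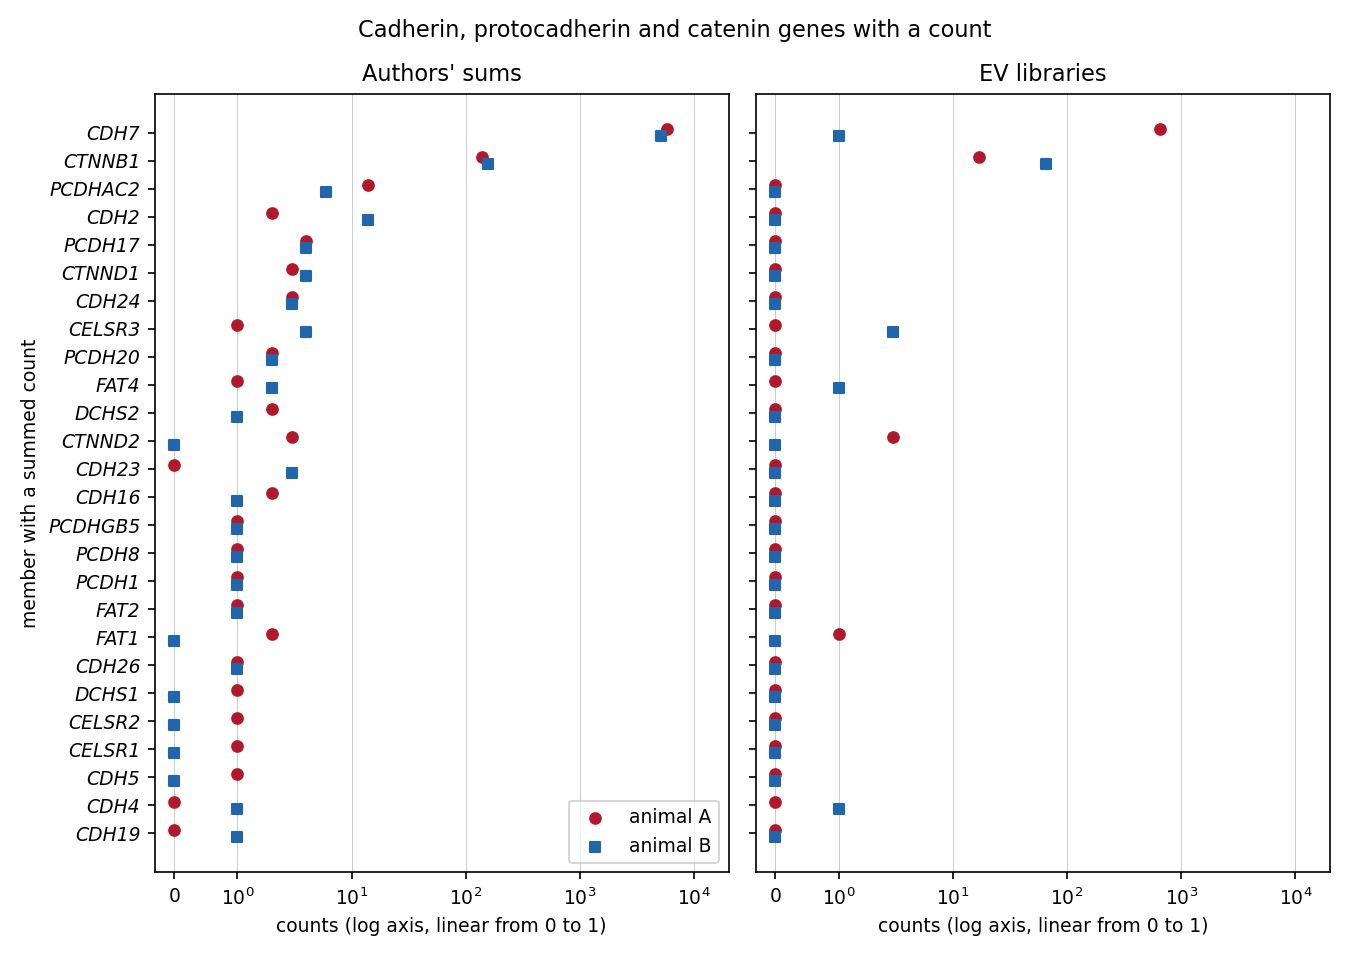
Counts of the 26 members with a summed count (rows), in the authors' sums (left) and the EV libraries (right), on a log axis that is linear from 0 to 1; red circles are animal A and blue squares animal B, 1 value each. CDH7 and CTNNB1 lie far to the right of the other members in both sums, and in the EV libraries they switch order between the animals.

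The other 63 members had 48 counts together in sum A, 51 in sum B, 4 in EV A and 5 in EV B. The median member had 0 counts in every column, as did the median named gene. In the larger of its sums, a member reached 10 counts in 4 cases, CDH7, CTNNB1, PCDHAC2 and CDH2, and 3 counts in 10 cases. That is 6.15% and 15.4% of members, beside 1.17% and 4.06% of all named genes. CDH7 and CTNNB1 thus stood far above the family, with PCDHAC2 next at 14 counts in sum A and CDH2 next at 14 in sum B.

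**Figure D2:**
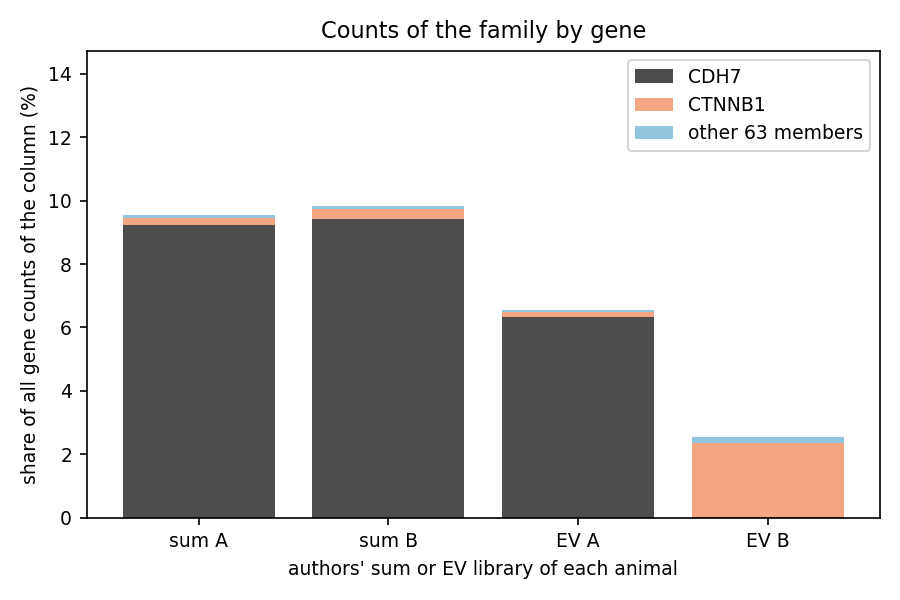
Share of all gene counts in each column (percent, vertical axis) held by CDH7, CTNNB1 and the other 63 members, stacked, for the authors' sum and the EV library of each animal. The family held 9.53% of sum A, 9.82% of sum B, 6.54% of EV A and 2.53% of EV B, and CDH7 is almost absent from EV B.

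Without CDH7 the family was a minor part of the counts in every column but EV B. Of the counts of named genes, members held 16.3% in sum A (15.9% to 16.6%), 17.6% in sum B (17.1% to 18.0%), 13.1% in EV A (12.2% to 14.0%) and 7.87% in EV B (6.21% to 9.81%). With CDH7 left out of both the members and the total, these shares were 0.603% in sum A, 0.82% in sum B, 0.463% in EV A and 7.77% in EV B. Members are 0.269% of named genes by number.

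Detection, meaning at least 1 count, was more frequent among members than among named genes at large. In the sums this did not rest on CDH7 or CTNNB1. In sum A 23 of 65 members were detected (35.4%, or 22 of 64 without CDH7), beside 13.3% of all named genes. In sum B 20 were detected (30.8%), beside 10.5%. Many named genes are small or repeated non-coding genes. Of 16836 genes whose symbol is protein-coding in RefSeq, 18.7% were detected in sum A and 14.8% in sum B. At 3 counts or more, 7 members (10.8%) remained in sum A, beside 3.42% of named genes and 4.85% of protein-coding symbols. In sum B 9 remained (13.8%), beside 2.62% and 3.71%. In EV A 4 members were detected (6.15%), beside 2.96% of named genes and 4.14% of protein-coding symbols, and in EV B 5 (7.69%), beside 1.40% and 1.95%. Without CDH7 and CTNNB1, 33.3% of the other 63 members were detected in sum A and 28.6% in sum B. In the EV libraries these were 2 genes in A (3.17%) and 3 in B (4.76%). The value for EV A was thus near that of named genes and below that of protein-coding symbols. Gene length was not used, so its part in detection was not tested.

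The members detected in the sums were largely shared by the animals. Of 26 members with a count in either sum, 17 had one in both, which is 73.9% of those detected in A and 85% of those in B. These 17 are 26.2% of members, beside 7.88% of named genes and 11.2% of protein-coding symbols. Among named genes 1906 were detected in both, of 3205 in sum A and 2538 in sum B. Most detected named genes were thus shared as well. Another 6 were detected in A alone and 3 in B alone, and 39 had 0 counts in both. The sums may not be independent of each other. The counts left after the EV count is taken off were equal in both animals for 10 of 24 members with such counts (41.7%, of which 7 had a single count in each), beside 31.3% of named genes.

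**Figure D3:**
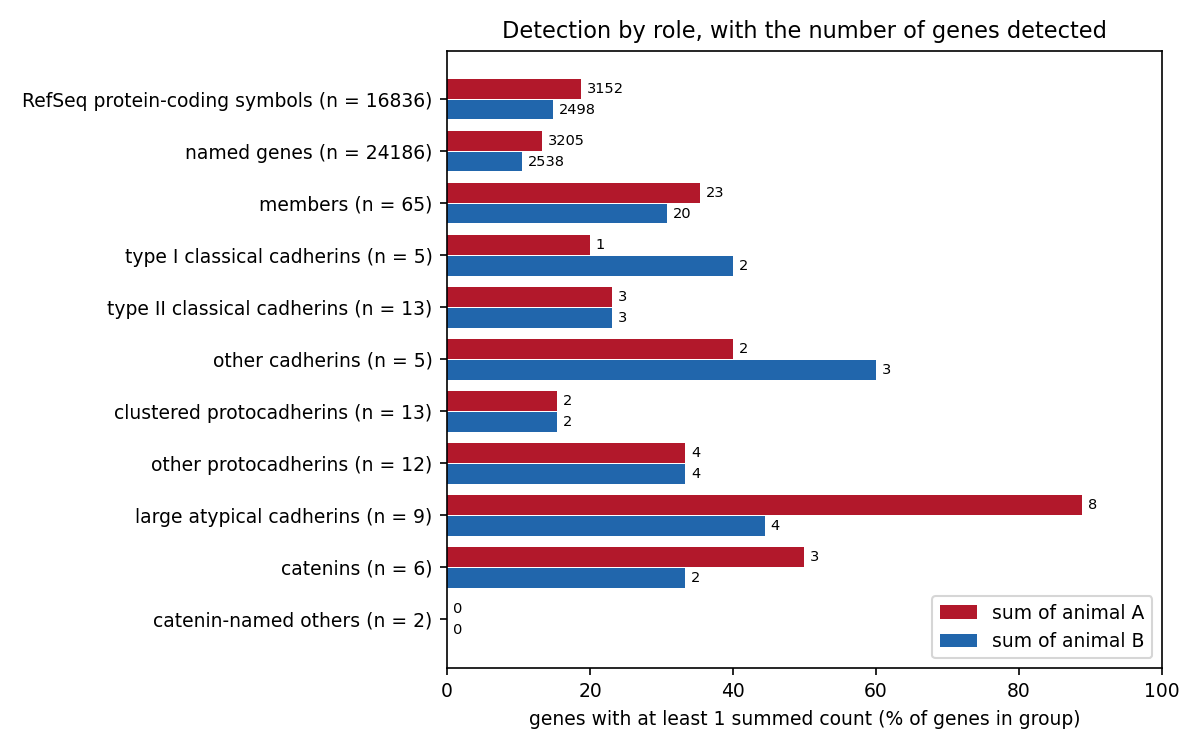
Percent of genes with at least 1 summed count (horizontal axis, from 0) by role, with all 65 members and both backgrounds at the top; red bars are the sum of animal A, blue bars that of animal B, and the numbers at the bars count genes. The large atypical cadherins reach 8 of 9 genes in A and 4 of 9 in B, whereas the clustered protocadherins have 2 of 13 in each.

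Among type I classical cadherins, which join cells of the same kind in epithelia, nerve and muscle, 1 of 5 was detected in sum A and 2 of 5 in sum B. That is 20% and 40% of few genes, beside 13.3% and 10.5% of all named genes. CDH2 (N-cadherin, of neurons and heart muscle) had 2 counts in sum A and 14 in sum B, and 0 in both EV libraries. Its share was 8.06 times as high in sum B as in sum A (exact interval 1.85 to 73.1). Among 283 named genes with at least 10 counts in either sum, 17.3% had an interval on that side of 1 and 27.2% on the other, at any size of ratio. An interval that excludes 1 was thus not rare. CDH4 (R-cadherin) had 1 count, in EV B, which was also its whole sum in B. CDH1, CDH3 and CDH15 had 0 counts in every column.

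Type II classical cadherins other than CDH7 had at most 3 counts in a column. Of 13 genes, CDH7 included, 3 were detected in each sum (23.1%). Beside this stood 13.3% of named genes and 18.7% of protein-coding symbols in sum A, and 10.5% and 14.8% in sum B. CDH24 had 3 counts in each sum and 0 in both EV libraries. CDH5, the cadherin of endothelial junctions, had 1 count in sum A and 0 elsewhere, and CDH19, known from Schwann cell precursors, had 1 in sum B. CDH6, CDH8, CDH9, CDH10, CDH11, CDH12, CDH18, CDH20 and CDH22 had 0 counts in every column. Of 6 endothelial markers, 4 had a count in each sum, with 8 counts together in A and 5 in B, and none had a count in an EV library. The 6 platelet markers, the 6 red cell markers and the 3 epithelial markers with a symbol had 0 counts in every column. Of 6 neuron markers, 1 had a count in sum A and 2 in sum B, and of 6 hepatocyte markers 1 in each, with 0 in both EV libraries. With 13.3% of all named genes detected in sum A and 10.5% in sum B, 0 is near the background for lists this short. These counts therefore do not tell which cells released the RNA. In plasma RNA, fewer releasing cells of a type and less RNA released per cell cannot be told apart, nor can either be told from low counts.

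The closest relatives and neighbours of CDH7 did not share its counts. In the gene order of RefSeq's rhesus macaque assembly, the nearest genes with a matching symbol on either side of CDH7 were CDH19, with 0 counts in sum A and 1 in sum B, and SERPINB8, with 0 in every column. DSEL and SERPINB10, the next ones out, also had 0. Beside CTNNB1, the nearest such genes ZNF621 and ULK4 had 0 counts in every column, as did ZNF620, and TRAK1 had 2 counts in sum A, 1 in sum B and 0 in both EV libraries. Neither gene thus lay in a run of named genes with counts.

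Of the 5 remaining CDH genes, 2 were detected in sum A (40%) and 3 in sum B (60%), beside 13.3% and 10.5% of all named genes. CDH23, a part of the tip links of hair cells, had 3 counts in sum B and 0 in the other columns. CDH16, the kidney cadherin, had 2 counts in sum A and 1 in sum B, and CDH26 had 1 in each. CDH13 (T-cadherin, a receptor for adiponectin on vessels) and CDH17 (of the gut and liver) had 0 counts in every column.

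Protocadherins had counts in the sums. None had a count in an EV library, where 2.96% of named genes had one in EV A and 1.40% in EV B, so that 0 is near the background for so few genes. PCDHAC2, from the alpha cluster that gives neurons their surface identity, had 14 counts in sum A and 6 in sum B. Its share was 2.03 times as high in sum A as in sum B, with an interval from 0.732 to 6.43 that spans 1, so a difference could not be told at these counts. PCDHAC2 was the 1 alpha-cluster gene with a symbol, and genes of that cluster share their last exons, so its counts cannot be assigned to it with certainty. PCDHGB5 of the gamma cluster had 1 count in each sum, and the 11 beta-cluster genes had 0 in every column. Of 12 protocadherins outside the clusters, 4 were detected in both sums. PCDH17, a brain protocadherin, had 4 counts in each, PCDH20 had 2 in each, and PCDH1 and PCDH8 had 1 in each. PCDH7, PCDH9, PCDH10, PCDH11X, PCDH12, PCDH15, PCDH18 and PCDH19 had 0 counts in every column. All 6 detected protocadherins were detected in both sums, and 5 of them at the same count, which was 1 for PCDHGB5, PCDH1 and PCDH8. Of 3837 named genes detected in either sum, 1906 were detected in both. Counts left after the EV count is taken off were equal for 31.3% of named genes. The sums may not be independent, so this is no measure of agreement between the animals.

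The large atypical cadherins were detected at low counts, with 10 counts together in sum A and 8 in sum B. Detected in sum A were 8 of 9, all but FAT3, and in sum B 4 of 9, which were CELSR3, DCHS2, FAT2 and FAT4. That is 88.9% and 44.4%, beside 13.3% and 10.5% of named genes and 18.7% and 14.8% of protein-coding symbols. At 3 counts or more, 0 remained in sum A and 1 in sum B. These genes encode very large proteins, and the part of gene length was not tested. CELSR3, a planar polarity receptor that guides axon tracts, had 1 count in sum A and 4 in sum B, and 3 of the latter were matched by 3 counts in EV B, against 0 in EV A. FAT4, the receptor of DCHS1, had 1 and 2 counts in the sums and 1 in EV B. FAT1 had 2 counts in sum A and 0 in sum B, with 1 count in EV A. DCHS2 had 2 and 1 counts, FAT2 had 1 in each, and DCHS1, CELSR1 and CELSR2 had 1 in sum A and 0 in sum B. No gene of this group had more than 4 counts in a column.

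Among the 6 catenins, the beta-catenin gene stood apart. CTNND1 (p120-catenin, which keeps cadherins at the surface) had 3 counts in sum A, 4 in sum B and 0 in both EV libraries. CTNND2 (delta-catenin, of neurons) had 3 counts in EV A, which was its whole sum in A, and 0 in animal B. CTNNA1, CTNNA2 and CTNNA3, the alpha-catenins, had 0 counts in every column. So had CTNNAL1 and CTNNBL1, which share the catenin name but are no core members of the junction.

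The EV libraries differed in opposite directions for CDH7 and CTNNB1. The share of CDH7 was 6.34% of the counts in EV A (5.88% to 6.82%) and 0.0352% in EV B (0.000891% to 0.196%), a ratio of 180 (32.2 to 7126). The share of CTNNB1 was 0.164% in EV A (0.0953% to 0.262%) and 2.32% in EV B (1.80% to 2.95%), 14.2 times as high in B (8.24 to 25.8). Intervals that exclude 1 were common. Of 46 named genes with at least 10 counts in either EV library, 52.2% had an interval above 1 for A over B and 26.1% an interval below 1. These percentages hold for ratios of any size, and how often ratios this large occur was not counted. The family as a whole had a share 2.58 times as high in EV A (2.02 to 3.34), with 680 counts against 72, but without CDH7 the ratio turned to 0.0808 (0.0472 to 0.133), with 21 counts against 71. Over both EV libraries the family share was 4.54% ± 2.83 (SD, n = 2). With 1 EV library per animal these values compare libraries and not animals.

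The authors' sums of CDH7 differed by nearly what its EV counts differed by. Sum A exceeded sum B by 653 counts and EV A exceeded EV B by 658. With the EV count taken off, 5139 counts were left in A and 5144 in B, a ratio of shares, B over A, of 1.01 (0.976 to 1.05). The sums of CTNNB1 did not show this. Its share was 1.30 times as high in sum B as in sum A (1.03 to 1.65), but with the EV counts taken off, 122 counts were left in A and 91 in B, a ratio of 0.756 (0.57 to 1.00008). The ratio for CTNNB1 thus moved to below 1, but its interval just includes 1, so a direction without the EV counts could not be told. Taking them off also assumes that the sums contain them. These intervals treat the sums as independent, and the near-equal values left for many genes show that they may not be.

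The EV count as a percent of the authors' sum was lower for the family than for other named genes in both animals. It was 11.4% for members in A (10.6% to 12.2%), beside 14.7% for named genes that are no members, and 1.35% in B (1.05% to 1.69%), beside 3.35%. CDH7 set both values, with 11.4% in A (10.6% to 12.2%) and 0.0194% in B (0.000492% to 0.108%). CTNNB1 had 12.2% in A (7.29% to 18.9%) and 42.0% in B (34.2% to 50.2%). The other 63 members had 8.33% in A (2.32% to 20.0%) and 9.80% in B (3.26% to 21.4%), from 4 and 5 EV counts. For members other than CDH7 together, the EV share was 11.2% in A (7.09% to 16.7%) and 34.1% in B (27.7% to 41.0%). No member had an EV count above its sum, whereas 16 named genes did in A and 11 in B, so the sums need not contain the EV libraries as listed.

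**Figure D4:**
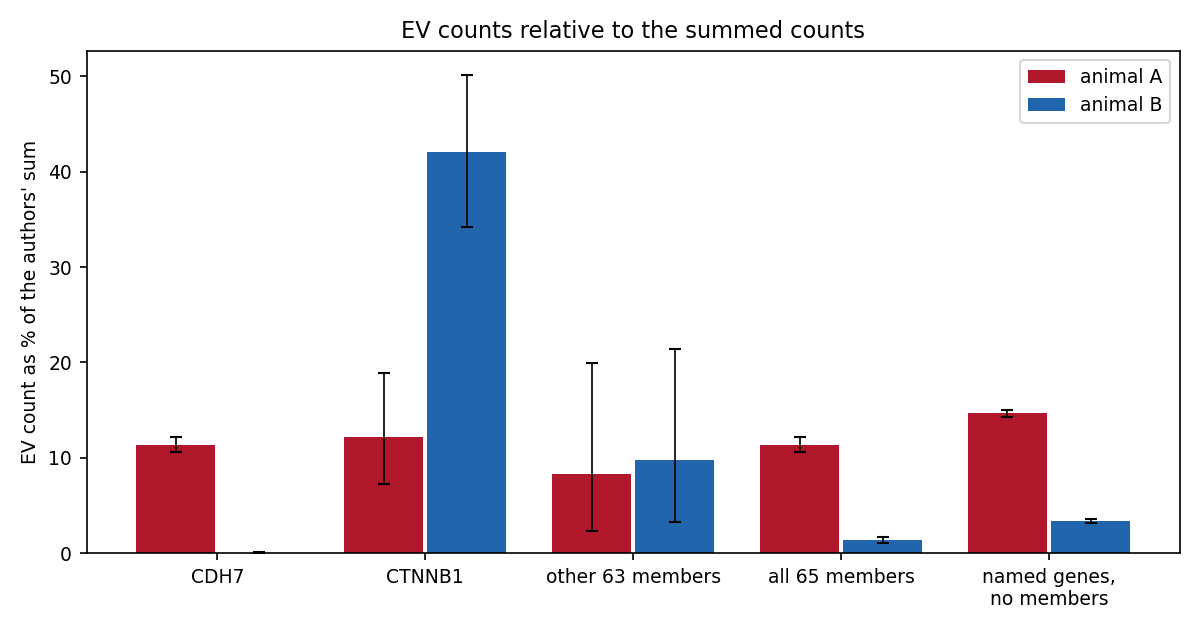
EV count as percent of the authors' sum (vertical axis, from 0) for CDH7, CTNNB1, the other 63 members, all 65 members and the named genes that are no members; bars are single values of animal A (red) and animal B (blue), and error bars are 95% Clopper-Pearson intervals for counting error. CTNNB1 in animal B stands at 42.0%, and CDH7 in animal B is near 0.

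Partners of these proteins were detected about as often as or somewhat more often than protein-coding genes at large, at low counts. Of 33 genes for junction partners, 11 were detected in sum A (33.3%) and 10 in sum B (30.3%), beside 18.7% and 14.8% of protein-coding symbols. The desmosome plaque gene PKP1 had 7 counts in each sum, ACTN1, an actin crosslinker, had 5 in each, the desmosomal cadherin gene DSC2 had 3 in each, and the p120 relative ARVCF had 3 in A and 1 in B. Of 36 genes of the beta-catenin pathway, 9 were detected in sum A (25%) and 5 in sum B (13.9%). The coactivator gene CREBBP had 16 counts in sum A and 0 in sum B, the Wnt coreceptor gene LRP5 had 6 and 1, AXIN2, a scaffold of beta-catenin breakdown, had 4 and 2, and TCF7, a nuclear partner of beta-catenin, had 3 and 3. Of 21 genes of Fat and Dachsous signalling, planar polarity and the Hippo pathway, 6 were detected in sum A (28.6%) and 3 in sum B (14.3%), with WWC1 highest at 5 and 0 counts. No gene of these 3 lists came near the summed counts of CTNNB1, and their EV counts were 7 in A and 1 in B.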

How the data were processed

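Per the labels' protocols, RNA was extracted with Norgen's plasma and serum kit, and libraries were built with the QIAseq UPXome kit. The aligner was STAR, per the submitters' processing notes. Its version, the build, the annotation, the strand setting and the counter are not given in the sources used here. The authors deposited raw counts per gene for the EV libraries, counts summed per animal over unnamed libraries, and input reads with the percent of reads mapped uniquely.

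EV and summed counts were joined by Ensembl identifier, and the members absent from the EV table (4642 genes) were set to 0. A table of identifiers gave symbols to 24186 of 35432 genes. Members, roles and lists were chosen with earlier results of these data known. Genes were named if they had an EV count, at least 3 counts in a sum (up to 30 members), or led a list (up to 4); other members are named for completeness, after their values were seen. Intervals came from scipy 1.17.1 (Clopper-Pearson and conditional binomial). Those of EV shares and ratios were run on simulated counts with counting error alone, for genes with at least 10 counts. That simulation shares the intervals' own assumption and does not cover PCR copies or EV counts as a percent of a sum. The RefSeq table belongs to another assembly and served for gene order and type alone, so no coordinate or gene length entered. Nothing in the labels says that the EV libraries are more than 1 preparation per animal.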

Additional observations from a re-analysis of the deposited data

Results flagged for a closer look

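The EV percent of the authors' sum for CTNNB1, less that of named genes that are no members, came to -2.43 percentage points for A and 38.7 for B. The values thus had opposite signs. The EV percent of CTNNB1 in A was 12.2%, with an interval from 7.29% to 18.9% that holds the 14.7% of the other named genes, so the value for A was within counting error, whereas that in B was 42.0% (34.2% to 50.2%) beside 3.35%. Each value rests on 1 EV library, and whether the animals differ was not tested.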

How the results depend on the processing

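Members were detected more often than the background in all 4 columns under every alternative run, but none of these left out CDH7 and CTNNB1 together. Without both, 3.17% of members had a count in EV A, beside 2.96% of named genes and 4.14% of protein-coding symbols. For EV A the interval of the difference as reported, -1.25 to 12.1 percentage points, spans 0. In percentage points, the difference ranged from 7.35 to 27.1 in sum A (22.1 as reported), 11.2 to 24.1 in sum B (20.3), 0.553 to 4.74 in EV A (3.20) and 2.83 to 8.22 in EV B (6.29). The lowest value in sum A, 7.35, came at 3 counts. Backgrounds of single-identifier or RefSeq protein-coding symbols, and sums less the EV count, were chosen after seeing the data. Taken of all gene counts, the family share was 9.53% in sum A, 9.82% in sum B, 6.54% in EV A and 2.53% in EV B. Without CDH7 it was 0.603% of named counts in sum A, 0.82% in sum B and 0.463% in EV A, and the EV share of the family's sum in B was 34.1%. The ratio of EV shares, A over B, was 0.0808 without CDH7, 30.2 without CTNNB1, 3.18 per uniquely mapped read and 2.05 without the leading feature. The mean EV share of 4.54% ran from 2.53% to 6.54% with 1 library left out. With sums less the EV count, CDH7 held 97.4% of the family in B, and the CTNNB1 ratio, B over A, went from 1.30 to 0.756. The interval of the latter, 0.57 to 1.00008, includes 1. Alternatives without CDH7 or CTNNB1 differ by construction; for the others the cause was not tested. A background of like protein length was not run. No paired analysis was possible because gene counts were analysed for 1 fraction alone. At these totals of gene counts a count of 0 allows up to 0.0289% of EV A and 0.106% of EV B, and the ratio of CDH7 rests on 1 count in EV B.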
